A study of Mus musculus with 12 samples.

Results

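Egr1, Egr2, Egr3, Nr4a1, Nr4a2, Nr4a3 and Myc encode transcription factors that T cells make soon after their antigen receptor is engaged. They were described here in mouse helper T cells that had been activated and then rested in culture. All 9 probes assigned to these 7 genes were taken, out of 41174 distinct non-control probes on the array. Myc had 3 probes and each of the other genes had 1. The Egr2 probe and 1 Myc probe, A_51_P102096, were each printed at 10 spots, and the other probes at 1 spot. Each gene was represented by its brightest probe, and 6 of the 7 genes entered the test across 14705 genes. Nr4a3 did not, since its probe was not well above background on any of the 12 arrays.

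The data came from 12 one-colour Agilent 4x44K arrays, 3 in each of 4 groups, with cells from C57BL/6 mice aged 7 weeks. Cells of DGCR8-deficient mice received miR-29b or a control miRNA. Cells of wild-type mice received miR-29 inhibitors or control inhibitors. Dgcr8 encodes the partner of Drosha that most microRNAs need for their processing. The labels name neither the Cre line nor the cells in which the gene was removed. Cells in all 4 groups had been stimulated for 65 hours with antibodies to CD3 and CD28 and were then held in IL-2 for 48 hours. They were electroporated on day 1 and day 4 and taken for RNA on day 5, which was 24 hours after the second transfection. In each genotype both arrays of a mouse (numbered 2, 3 and 4 within the genotype) held cells of that mouse, 1 array for each oligonucleotide. No array of unstimulated or freshly stimulated cells was analysed here, so the levels below are those of previously activated cells only.

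EGR proteins are zinc-finger factors, and NR4A proteins are orphan nuclear receptors. Genes of both families are switched on within minutes to hours of receptor signalling, without new protein synthesis, and their mRNAs are short-lived. Egr1 relies on MAP kinase signals acting through serum response factor. Egr2 and Egr3 also need calcium and NFAT, and in T cells they restrain later responses. Nr4a1 is widely used as a reporter of antigen receptor signal strength, and NR4A factors take part in tolerance and exhaustion. Myc, which is also held up by IL-2 and CD28 signals, drives growth, metabolism and division of activated T cells.

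The miRNA added to Dgcr8-deficient cells belongs to a family of 3 mature sequences that share bases 2 to 8, the seed by which a microRNA pairs with its targets. They are shown to identify the agent, with the seed in capitals. The sequences are from RefSeq (GRCm38.p6), and 3 of 1679 mature miRNAs in that table carry this seed. The sequence of miR-29a lies at chr6:31062673-31062694 on the minus strand, and miR-29c at chr1:195037600-195037621 on the plus strand. miR-29b is encoded at chr6:31063025-31063047 on the minus strand and again at chr1:195037091-195037113 on the plus strand.
miR-29a-3p: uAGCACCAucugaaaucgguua
miR-29b-3p: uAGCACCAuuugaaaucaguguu
miR-29c-3p: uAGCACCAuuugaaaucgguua

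Promoter windows, from 250 bases before to 50 bases after a transcription start, were matched in RefSeq for Egr2, Nr4a1, Nr4a2 and Nr4a3. No window was matched for Egr3 or Myc. Egr1 was left out of this search, so whether its promoter holds these motifs is not described. One of the 5 Egr2 windows is printed because Egr2 was the only one of the 6 tested genes that differed between groups in the main fit. It is the first by position of those with the most matches to the motifs marked below, so these matches carry no test. It lies at chr10:67537619-67537918 on the plus strand of GRCm38.p6.
Egr2 promoter: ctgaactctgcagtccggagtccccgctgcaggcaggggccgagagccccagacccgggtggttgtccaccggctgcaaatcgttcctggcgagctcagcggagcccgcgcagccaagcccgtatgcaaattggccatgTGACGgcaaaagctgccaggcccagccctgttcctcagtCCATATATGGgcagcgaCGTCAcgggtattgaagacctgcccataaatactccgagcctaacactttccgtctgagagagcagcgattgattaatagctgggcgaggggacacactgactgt
Capitals mark 1 CArG box, the sequence bound by serum response factor, which begins at position -72 from the start, and 2 matches to TGACG on either strand, the core of the cAMP response element, which begin at -111 and -55. A CArG box was found in 4 of the 5 Egr2 windows, which overlap in part, and in 1.63% of all 32851 windows. TGACG occurred in 20.8% of all windows, and not in the Egr2 windows that begin at 67535249 and 67537316. The windows of Nr4a1, Nr4a2 and Nr4a3 each held 4 matches to TGACG and no CArG box. Nr4a1 and Nr4a2 each held 1 match to GCGNGGGCG, the motif of EGR proteins, which 5.55% of all windows held on either strand.

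A level, here and below, is the log2 of a probe's signal minus the 75th percentile on its own array, and levels are compared between arrays, not between probes. Changes are log2 fold changes with their standard errors from limma, fitted on all 12 arrays. Benjamini-Hochberg adjustment covered all 14705 genes, and a gene is said to have changed where the adjusted p was under 0.05. Per array, 27287 to 31405 probes stood well above background and 0 spots were saturated. The level of Dgcr8 ran between -1.25 and -0.15 over the 6 Dgcr8-deficient arrays, against -0.16 to 1.01 in the wild type. Among control arrays its change was -1.06 ± 0.39 (adjusted p = 0.0754), and whether its probe lies in the deleted part was not established. Of 8 CD4 T cell markers 7 were tested, and all 7 were well above background on every array. Both arrays of any mouse lay on the same slide. One slide held mouse 2 of both genotypes, 1 held Dgcr8-deficient mouse 4 with wild-type mouse 3, and the remaining mice had a slide each. Within each genotype both arrays of a mouse correlated in their deviations from the group means, at 0.652, 0.613 and 0.753 for the Dgcr8-deficient mice and at 0.468, 0.722 and 0.43 for the wild-type mice. Fits with the mouse as a block are therefore given where they change a call of the 6 tested genes or, between controls, of a gene on the lists below. For listed genes in the comparisons of oligonucleotides and in the difference between their effects, calls that changed with the block are named in part only.

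The comparison of both control groups asks how these genes stand in cells short of microRNAs. Egr2 was higher in Dgcr8-deficient control cells, while none of the other 5 tested genes passed the threshold. That is 1 of 6 genes, against 22.3% of all genes tested in this comparison (3274 of 14705, with 9.26% higher and 13% lower). An unadjusted p under 0.05 (limma) likewise held for 1 of 6. Over all genes it held for at least the 3274 called after adjustment and for fewer than 6660. The latter is the rank of Myc, whose unadjusted p was 0.149 (limma). Genotype and kind of control oligonucleotide cannot be told apart in this comparison, since Dgcr8-deficient controls received a control miRNA and wild-type controls a control inhibitor.

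Egr2 encodes a factor that limits T cell activation and is tied to anergy. In Dgcr8-deficient cells its level was 0.01, -0.53 and -0.66 on the miR-29b arrays of mice 2, 3 and 4, and -0.10, -1.10 and -1.20 on their control arrays. In wild-type cells it was -2.00, -1.93 and -1.69 on the inhibitor arrays, and -2.44, -2.45 and -2.05 on the control arrays. All 6 Dgcr8-deficient arrays lay above all 6 wild-type arrays, with 2 arrays of each of 3 mice in either genotype. How many of all genes were separated in this way was not counted. Mouse 2 was the highest of the Dgcr8-deficient mice.

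Group means for Egr2 were -0.39 ± 0.36 with miR-29b, -0.80 ± 0.61 in the Dgcr8-deficient controls, -1.87 ± 0.16 with inhibitors and -2.31 ± 0.23 in the wild-type controls (SD, n = 3 each). Among controls the change was 1.51 ± 0.30, a fold of 2.85 (95% interval of the log2 change 0.85 to 2.17, adjusted p = 0.00454). The groups did not overlap, which was true in this direction of 14.9% of genes. Egr2 passed the threshold under each of 21 alternative settings, with adjusted p from 0.00159 to 0.0322 and changes from 1.16 to 1.73. Within the slide that held mouse 2 of both genotypes the difference was 2.33, and within the slide of Dgcr8-deficient mouse 4 and wild-type mouse 3 it was 1.25. In bulk RNA, fewer cells of a type and less RNA per cell cannot be told apart.

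Summed markers of B cells and of NK cells did not overlap between the genotypes either. All 6 B cell markers were tested and 4 of them were well above background on every array, with Pax5 on 10 arrays and Blk on 9. Their summed signal, as a multiple of the array's 75th percentile, was 4.86 to 10.4 with miR-29b, 4.22 to 9.22 in the Dgcr8-deficient controls, 0.461 to 0.587 with inhibitors and 0.351 to 0.506 in the wild-type controls. NK cell markers ran the other way, with sums of 0.194 to 0.526, 0.375 to 0.713, 1.83 to 3.82 and 1.25 to 2.87 in the same order of groups. Klrd1 weighed most in the highest sums, since its level reached 1.89 and the highest level of any other was -2.56, for Klrb1c. Ncr1 was well above background on 7 arrays, Klra8 on 5 and Klrk1 on 9. In the CD4 T cell sum that follows, Cd3d (6.07 to 6.76) and Lck (5.29 to 6.31) weighed most and Cd4 itself (-0.38 to 0.17) least. Summed CD4 T cell markers were 217 to 249 with miR-29b, 163 to 193 in the Dgcr8-deficient controls, 239 to 248 with inhibitors and 205 to 254 in the wild-type controls, so the Dgcr8-deficient controls lay below the other 3 groups. Of 7 myeloid and dendritic markers Csf1r, Adgre1 and Cd14 were well above background on 12 arrays, Itgam on 10, Itgax on 8, Lyz2 on 1 and Csf3r on 0. The sum of the 5 that were kept was 0.153 to 0.360 with miR-29b, 0.178 to 0.310 in the Dgcr8-deficient controls, 0.230 to 0.382 with inhibitors and 0.223 to 0.303 in the wild-type controls. The part of these markers in the Egr2 difference was not tested.

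**Figure D1:**
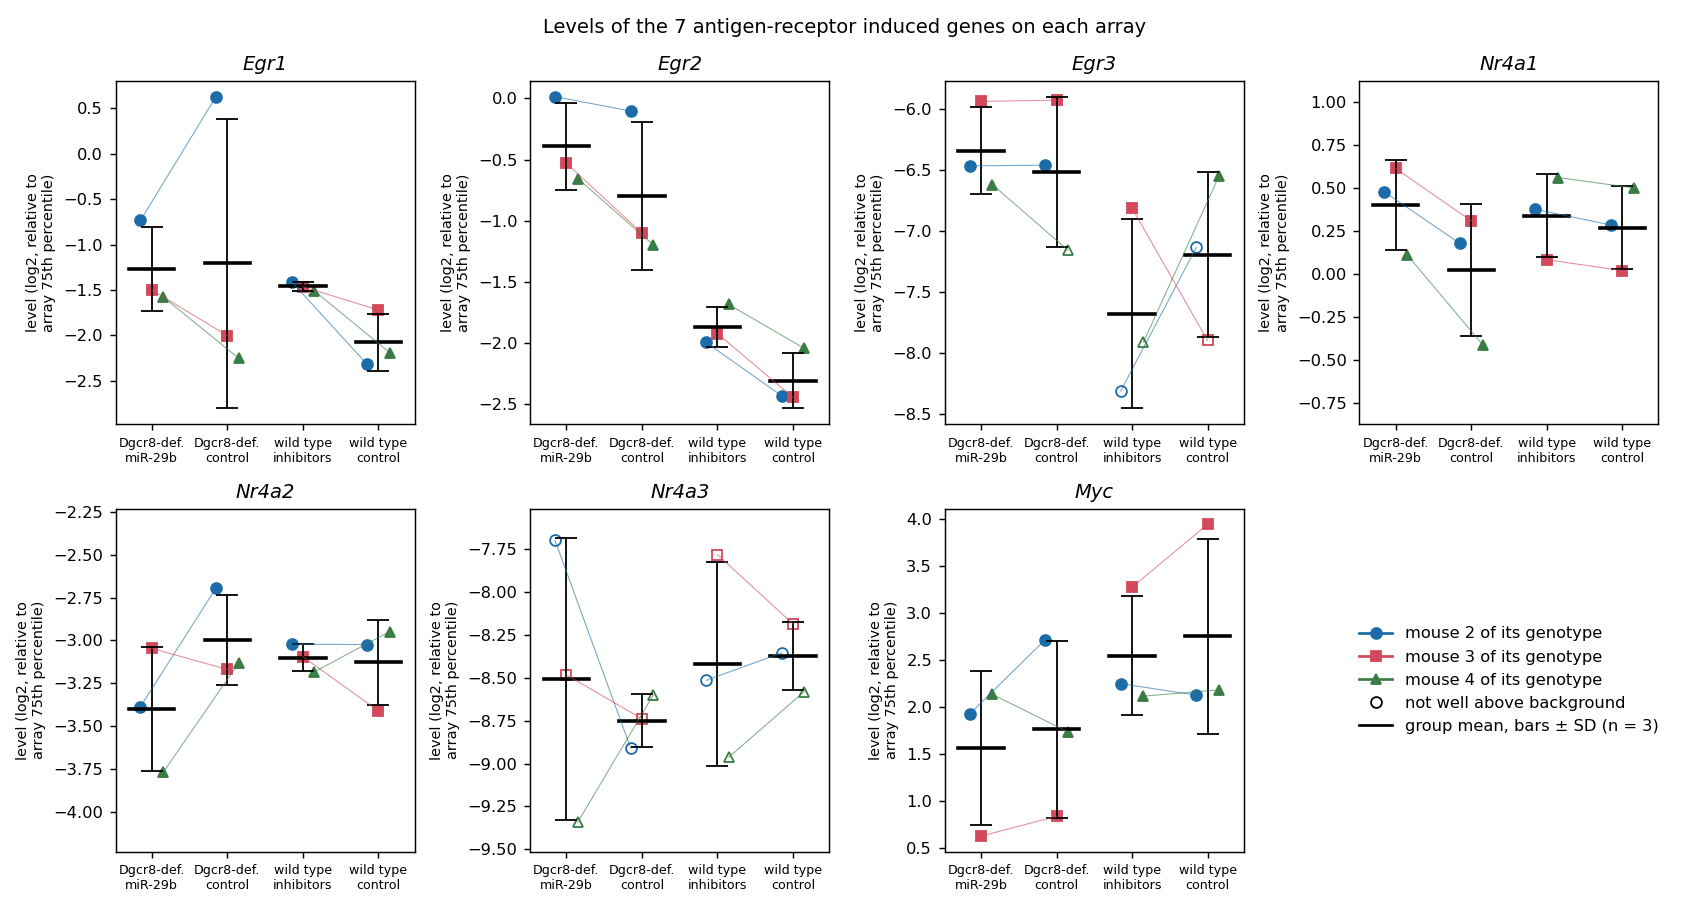
Level (log2, relative to the array's 75th percentile) of each of the 7 genes on each array, by group, with lines joining both arrays of a mouse, group means and SD bars (n = 3), and open symbols for signals not well above background. Each gene has its own vertical scale. All 6 Dgcr8-deficient Egr2 values lie above all 6 wild-type values, whereas for the other genes the genotypes overlap.

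Egr1, the prototype immediate-early gene of the family, was carried by 1 mouse among the Dgcr8-deficient cells. Its level was -0.74, -1.50 and -1.58 with miR-29b in mice 2, 3 and 4, and 0.63, -2.00 and -2.25 on the control arrays of those mice. Wild-type cells had -1.41, -1.47 and -1.51 with inhibitors, and -2.32, -1.72 and -2.19 with control inhibitors. Mouse 2 of the Dgcr8-deficient genotype thus gave both of the highest values of the series, while its other mice stood among the wild-type arrays.

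The change in Egr1 among controls was 0.87 ± 0.62 (limma, adjusted p = 0.39). It was -0.051 without the control array of Dgcr8-deficient mouse 2. On the slide of mouse 2 of both genotypes the difference was 2.95, and on the slide of Dgcr8-deficient mouse 4 and wild-type mouse 3 it was -0.53. The spread of Egr1 within groups, pooled over all 4, was an SD of 0.85 on the log2 scale, wider than that of 91.2% of genes (median of all genes 0.37).

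Egr3, the closest relative of Egr2 in T cell function, was near the limit of detection. Its level was -6.46, -5.94 and -6.62 with miR-29b, and -6.46, -5.93 and -7.16 in the Dgcr8-deficient controls. Wild-type arrays had -8.31, -6.81 and -7.91 with inhibitors, and -7.13, -7.90 and -6.55 with control inhibitors. The probe was well above background on 3 of 3 miR-29b arrays, 2 of 3 Dgcr8-deficient control arrays, 1 of 3 inhibitor arrays and 1 of 3 wild-type control arrays. It passed the filter on dim probes, which asked for 3 arrays, only through the Dgcr8-deficient arrays, so its fold changes rest in part on signals that were not measured above background. The levels of both control groups overlapped, and the change between them was 0.68 ± 0.46 (limma, adjusted p = 0.364).

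Nr4a1 encodes Nur77, and its level lay in a narrow band on all 12 arrays. It was 0.48, 0.61 and 0.11 with miR-29b in mice 2, 3 and 4, and 0.18, 0.31 and -0.41 in the Dgcr8-deficient controls. Inhibitor arrays read 0.38, 0.08 and 0.56, and wild-type control arrays read 0.29, 0.02 and 0.50. The pooled SD within groups was 0.29, wider than that of 34.3% of genes. Between the controls its change was -0.24 ± 0.24, with a 95% interval from -0.78 to 0.29 (limma, adjusted p = 0.56).

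Nr4a2, which encodes Nurr1, was well above background on every array. Its level was -3.39, -3.05 and -3.77 with miR-29b, and -2.69, -3.17 and -3.13 in the Dgcr8-deficient controls. In the wild type it was -3.02, -3.09 and -3.18 with inhibitors, and -3.02, -3.41 and -2.95 with control inhibitors. Nr4a2 had the smallest pooled SD of the 6 tested genes, 0.26, and its change among controls was 0.13 ± 0.22 (limma, adjusted p = 0.767). Nr4a3, which encodes NOR1, was not well above background on any array, with readings between -9.34 and -7.70 in Dgcr8-deficient cells, against -8.96 to -7.78 in wild-type cells. It therefore has a bound only, and no fold is given.

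Myc had its highest levels in wild-type cells of mouse 3. The brightest probe read 1.93, 0.63 and 2.14 with miR-29b in mice 2, 3 and 4, and 2.72, 0.84 and 1.74 in the Dgcr8-deficient controls. In wild-type cells it read 2.25, 3.27 and 2.12 with inhibitors, and 2.13, 3.94 and 2.18 with control inhibitors. Wild-type mouse 3 stood above the other 5 mice, and Dgcr8-deficient mouse 3 stood below them, on both of their arrays.

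Group means for Myc were 1.57 ± 0.82 with miR-29b, 1.77 ± 0.94 in the Dgcr8-deficient controls, 2.55 ± 0.63 with inhibitors and 2.75 ± 1.03 in the wild-type controls (SD, n = 3 each). Its change among controls was -0.98 ± 0.63, with a 95% interval from -2.38 to 0.42 (limma, adjusted p = 0.329). The slides did not give it the same sign: the difference was 0.59 for mouse 2 of both genotypes and -2.20 for Dgcr8-deficient mouse 4 and wild-type mouse 3. The pooled SD of Myc within groups was 0.87, wider than that of 91.9% of genes.

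On all 3 Myc probes both arrays of wild-type mouse 3 were the highest and both arrays of Dgcr8-deficient mouse 3 the lowest. Probe A_52_P108346 correlated with the brightest probe, A_51_P102096, at r = 0.99 over 12 arrays, and probe A_52_P278549 at 0.92. These points share arrays and mice, and the values are descriptions. On A_52_P278549, Dgcr8-deficient arrays read -1.54, -1.65 and -0.96 with miR-29b and -0.51, -1.61 and -1.47 with control miRNA. The same probe read -0.88, -0.10 and -1.29 on inhibitor arrays and -0.49, 0.59 and -1.01 on wild-type control arrays. Fitted over all 32200 kept probes, the change among controls was -0.985 for A_51_P102096, -1.004 for A_52_P108346 and -0.891 for A_52_P278549, and none passed the threshold (limma, adjusted p = 0.375, 0.363 and 0.249 in that order), against 17.2% of all kept probes that did.

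**Figure D2:**
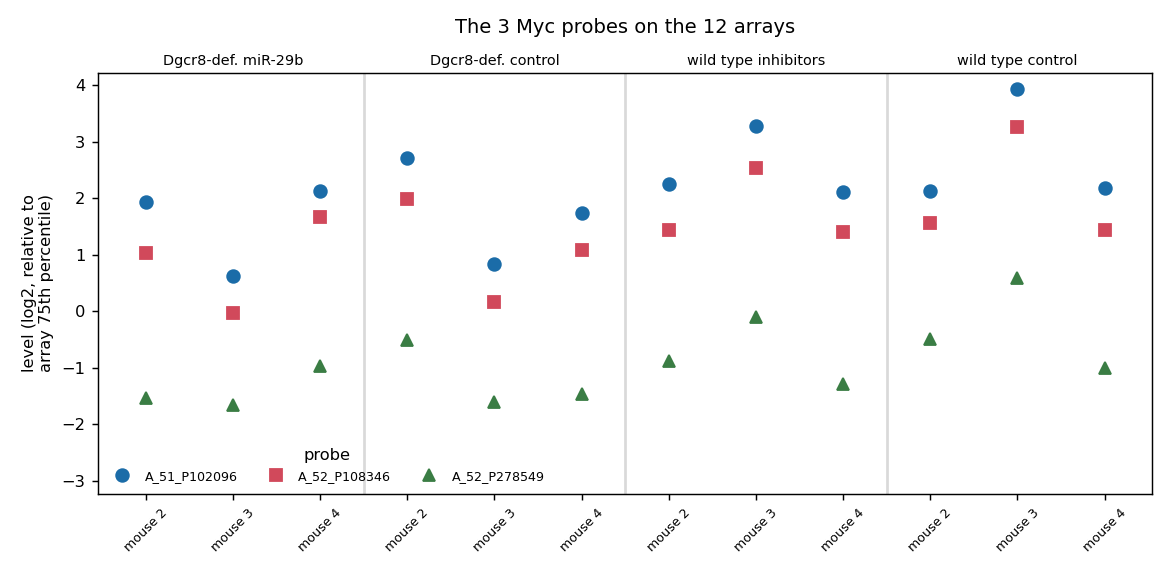
Level (log2, relative to the array's 75th percentile) of each of the 3 Myc probes on the 12 arrays, in group order, with 1 symbol per probe. On all 3 probes the wild-type control array of mouse 3 is the highest.

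Adding miR-29b to Dgcr8-deficient cells asks what this family does in cells short of their own microRNAs. None of the 6 tested genes changed in the fit without a mouse block, against 2.3% of all genes (338 of 14705, with 0.891% higher and 1.41% lower). An unadjusted p under 0.05 was found for 0 of the 6 and for 2070 of all genes. The summed CD4 T cell markers were higher on all 3 miR-29b arrays than on all 3 control arrays, as given above, and their part in the values below was not tested.

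The array pairs of single mice showed 2 genes that were higher with miR-29b in 3 of 3 mice, which held for 34.1% of all genes. Nr4a1 was higher by 0.30, 0.31 and 0.52 in mice 2, 3 and 4, a change of 0.38 ± 0.24 (limma, adjusted p = 0.57). Egr2 was higher by 0.12, 0.57 and 0.54, a change of 0.41 ± 0.30 (limma, adjusted p = 0.636). In the fit blocked by mouse Nr4a1 passed the threshold (0.38 ± 0.08, adjusted p = 0.0285), as did 20.7% of all genes. It also passed with the slide as a block (limma, adjusted p = 0.0378, 16.9% of all genes called), but not with the scan day as a block (adjusted p = 0.0614). Each Dgcr8-deficient mouse had both of its arrays on a different slide, so the slide block pairs the same arrays and is no separate check. Egr2, blocked by mouse, did not pass (adjusted p = 0.0512). Between them, the alternative settings gave Nr4a1 changes of 0.16 to 0.52, the smallest without the control array of Dgcr8-deficient mouse 4. The unscaled Nr4a1 signal was 1431, 1396 and 1308 with miR-29b in mice 2, 3 and 4, and 1318, 1237 and 1223 with control miRNA. The 75th percentile subtracted was 10.00, 9.83 and 10.24 (log2) with miR-29b, and 10.19, 9.96 and 10.67 with control miRNA. In the log2 values deposited by the authors Nr4a1 was higher by 0.31, 0.38 and 0.51. How far its change follows the scaling was not tested.

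The other 4 genes did not move the same way in every Dgcr8-deficient mouse. Egr1 differed by -1.36 in mouse 2, and by 0.50 and 0.68 in mice 3 and 4, a mean change of -0.06 ± 0.62 (limma, adjusted p = 0.99), or 0.86 without the control array of mouse 2. Nr4a2 differed by -0.69, 0.12 and -0.64 (-0.40 ± 0.22, adjusted p = 0.483). Egr3 differed by -0.01 in mouse 2 and in mouse 3, and by 0.54 in mouse 4. Myc differed by -0.79, -0.21 and 0.40, a change of -0.20 ± 0.63 with a 95% interval from -1.60 to 1.20. Both other Myc probes had the same sign as this one in each of the 3 mice.

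Blocking miR-29 in wild-type cells asks what the endogenous family does there. It changed none of the 6 tested genes, and 0% of all genes passed the threshold (0 of 14705). Without adjustment, p was under 0.05 for 0 of the 6 and for 63 of all genes. The count of genes called also stayed at 0 in every alternative fit, the blocked ones included.

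Egr1 and Egr2 nonetheless had all 3 inhibitor arrays above all 3 control arrays, as did 1.76% of genes. For Egr1 the differences were 0.91, 0.25 and 0.68 in wild-type mice 2, 3 and 4 (0.62 ± 0.62). For Egr2 they were 0.44, 0.52 and 0.36 (0.44 ± 0.30). The limma adjusted p was 1 for both. Higher with inhibitors in 3 of 3 mice was found for 14.4% of all genes, and Nr4a1 was among them, with differences of only 0.09, 0.06 and 0.06. Egr3 varied most, with differences of -1.18, 1.08 and -1.36, at signals mostly not well above background. Nr4a2 differed by 0.00, 0.32 and -0.24, and Myc, on its brightest probe, by 0.12, -0.67 and -0.07. Both other Myc probes were lower in 3 of 3 mice, so the sign in mouse 2 was not shared. A_52_P108346 differed by -0.11, -0.71 and -0.03, and A_52_P278549 by -0.39, -0.69 and -0.28. Lower with inhibitors in 3 of 3 mice was found for 8.46% of all genes.

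**Figure D3:**
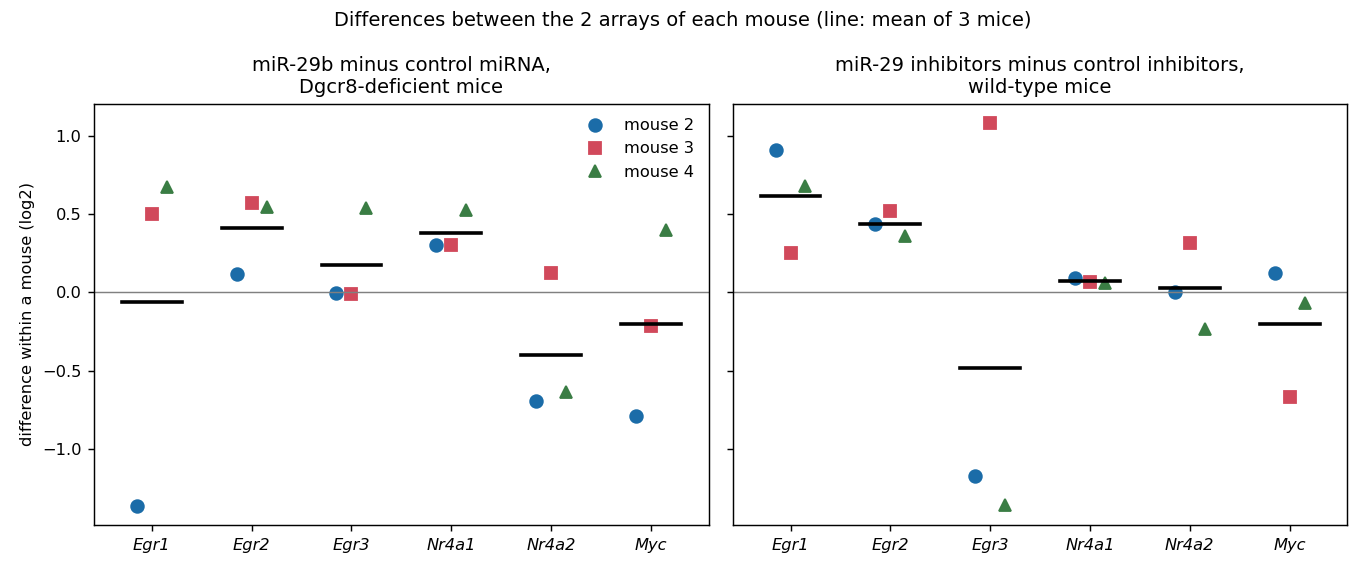
Difference in level (log2) between both arrays of each mouse, miR-29b minus control miRNA on the left and miR-29 inhibitors minus control inhibitors on the right, for the 6 tested genes, with a line at the mean of 3 mice. Egr2 and Nr4a1 are above 0 in every mouse in both panels, and Egr1 of Dgcr8-deficient mouse 2 lies at -1.36.

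Whether the effects of adding and of blocking miR-29 differed was tested as the difference between both effects. None of the 6 tested genes passed, against 0.17% of all genes (25 of 14705), and without adjustment p was under 0.05 for 0 of the 6 and for 1071 of all genes. For Egr2 the effects were 0.41 with miR-29b and 0.44 with inhibitors, a difference of -0.03 ± 0.42 with a 95% interval from -0.96 to 0.90. Nr4a1 had a difference of 0.30 ± 0.34, and Nr4a2 of -0.43 ± 0.31. The 25 calls split into 2 higher and 23 lower, and after background correction by normexp they split into 24 higher and 86 lower.

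**Figure D4:**
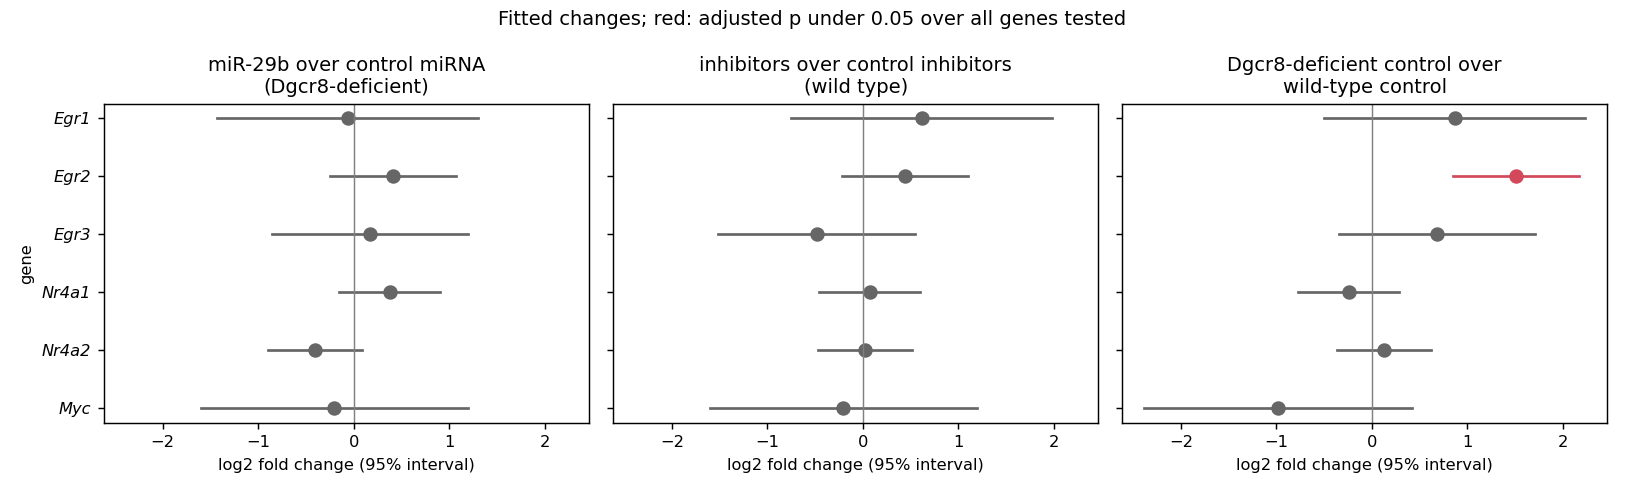
Log2 fold change with its 95% interval for the 6 tested genes in each comparison, with red for an adjusted p under 0.05. Egr2 among controls is the only red point, at 1.51.

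Among the members, Egr1 and Egr2 varied together most closely. Their deviations from the group means correlated at r = 0.86 over 12 arrays, and their levels at 0.64. Among the Dgcr8-deficient controls both genes were highest in mouse 2, at 0.63 for Egr1 and -0.10 for Egr2. The group means there were -1.21 and -0.80. The share of that mouse in the correlation was not tested. Nr4a1 and Myc deviated in opposite directions (r = -0.59), and Nr4a1 and Nr4a2 together (r = 0.56). Egr2 and Egr3 levels correlated at 0.62, but their deviations within groups only at 0.18. The 12 arrays came from 6 mice and share slides, so these values describe this series and carry no test.

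The most similar patterns over the 12 arrays were ranked among 12144 genes well above background on every array. Egr2 was closest to Dmwd (r = 0.97), Mtmr3 (0.97) and Ptpn23 (0.96). For Egr1 the closest were Actl7b (0.88), Ift57 (0.86) and Vps33b (0.85). Actl7b stayed between -5.68 and -5.31 outside the Dgcr8-deficient controls, where it reached -3.01. Between controls it differed by 2.51 on the slide of mouse 2 of both genotypes and by -0.42 on the other shared slide. Its match thus follows the Dgcr8-deficient control array of mouse 2, the array on which Egr1 was highest. Nr4a1 was closest to Cdk9 (0.97), a kinase of transcription elongation, then to Rasal3 (0.96) and Rabep2 (0.96). Before scaling, the Nr4a1 signal ran only from 1218 to 1572, while the 75th percentile that was subtracted ran from 9.83 to 10.67 (log2). How far the Nr4a1 matches follow this scaling was not tested. Nr4a2 was matched less closely, by Sptlc2 (0.81), Maz (0.81) and Fads2 (0.81). Myc was closest to Nfkbiz (0.96), which encodes an atypical inhibitor of NF-kB, to Nkrf (0.96) and to Dazap1 (0.94). Removing the group means left Nr4a1 with Cdk9 at 0.97 and Myc with Nfkbiz at 0.95, while Egr2 with Dmwd stood at 0.81.

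Around these genes, 11 lists of partner, pathway and target genes were counted in the comparison of controls, where the median change of all genes was -0.08. Of their 174 tested genes 44 passed, or 25.3%, against 22.3% of all genes (9.26% higher and 13% lower). Of 20 tested immediate-early genes 5 were higher in Dgcr8-deficient control cells and 0 lower (median 0.28). Jun, an AP-1 subunit, changed by 2.73 ± 0.18 (adjusted p = 9.57e-06), with levels of 0.25 to 0.52 in the Dgcr8-deficient controls and -2.57 to -2.17 in the wild-type controls. Atf3, a stress-induced factor of the ATF family, changed by 4.32 ± 0.42 (adjusted p = 7.26e-05), with levels of 0.54 to 2.05 against -3.62 to -2.72. Btg2 and Btg1, antiproliferative genes, changed by 1.83 and 0.81, and Ier3 by 1.40. The call for Btg1 held under 11 of 21 alternative settings, for Ier3 under 16 and for Btg2 under 20. In the fit blocked by mouse, which called 20.5% of all genes, Btg1 did not pass (adjusted p = 0.144) and Gadd45b did (1.14 ± 0.36, adjusted p = 0.0465).

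None of 7 EGR corepressors and serum response factor cofactors passed. Nab1, a corepressor that EGR proteins recruit, came nearest at 1.13 ± 0.49 (limma, adjusted p = 0.136). Of 10 MAP kinase feedback inhibitors 1 was higher, Dusp4, a phosphatase of nuclear MAP kinases, at 1.54 ± 0.44 (adjusted p = 0.0276). That call was lost under 6 of 21 settings.

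Reported targets of EGR2 and EGR3 in T cells did not move one way. Of 15 tested, 4 were higher and 2 lower (median 0.42). Rnf128, the anergy-linked ubiquitin ligase GRAIL, fell by 3.57 on the log2 scale (SE 0.38, adjusted p = 0.000132), with levels of -6.17 to -5.18 in the Dgcr8-deficient controls and -2.20 to -1.51 in the wild-type controls. Nrgn also fell, by 1.63. Socs3, an inhibitor of cytokine signalling, rose by 1.90 ± 0.26, and Cdkn1a, which encodes the cell cycle inhibitor p21, by 1.29 ± 0.20. Nrn1, a marker of anergic T cells, rose by 2.66 ± 0.68, and Lag3, an inhibitory receptor, by 2.46 ± 0.65. Nrgn and Nrn1 passed under 15 of 21 settings and Lag3 under 16.

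NR4A partners and NR4A-linked genes gave 1 higher and 3 lower of 13 tested (median -0.01). Foxp3, the regulatory T cell factor, fell by 1.72 (SE 0.17, adjusted p = 8.5e-05), and Nr2f6 and Batf fell by 0.73 and 0.56. Irf4, a factor induced in step with receptor signal strength, rose by 1.86 ± 0.37. Batf passed under 5 of 21 settings and missed the threshold in the fit blocked by mouse (adjusted p = 0.1002).

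Among 18 calcium, NFAT and NF-kB response genes 3 were higher and 1 lower (median 0.04), a share of 22.2%, close to the 22.3% of all genes. Bcl3, a nuclear IkB protein, rose by 1.32 ± 0.18, Myb by 1.50 ± 0.30 and Nfatc2 by 0.64 ± 0.18. Csf2, which encodes the cytokine GM-CSF, fell by 1.16 (SE 0.31). The calls for Csf2 and Nfatc2 each held under 13 of 21 settings. Blocked by mouse, Csf2 did not pass (adjusted p = 0.0998) and Nfat5 did (1.09 ± 0.35, adjusted p = 0.0494), so that 4 of the 18 were higher and 0 lower.

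Surface genes of T cell activation included 5 higher and 3 lower of 16 (median 0.82). Il2ra, the high-affinity IL-2 receptor chain, rose by 1.29 ± 0.36, Tnfrsf4, which encodes OX40, by 1.25 ± 0.25, Sema7a by 2.20 ± 0.44 and Cd83 by 1.97 ± 0.49. Cd40lg, the ligand by which helper T cells instruct B cells, fell by 0.96 (SE 0.14), and Icos fell by 0.69 (SE 0.18). Of the 3 lower genes only Cd40lg passed in the fit blocked by mouse, since Icos (adjusted p = 0.0548) and Tfrc (adjusted p = 0.0660) did not, while the same 5 genes were higher. Of 17 genes of resting T cells 5 were higher and 0 lower (median 0.40). Among them were Ccr7 (1.35 ± 0.27), a chemokine receptor for lymph node entry, with Tsc22d3 (2.01 ± 0.34), Klf3 (1.03 ± 0.21) and Slfn2 (0.78 ± 0.17). Genes of both lists thus stood higher in the same arrays. The summed B cell markers were higher in these arrays as well, as given above, and their part in these changes was not tested.

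Of 11 genes of the MYC dimerisation network 1 was higher, Mxd1, which encodes a rival of MYC for their shared partner MAX, at 1.46 ± 0.47 (adjusted p = 0.0478, under 7 of 21 settings). Mxd4, of the same family, was lower in the fit blocked by mouse only (-1.06 ± 0.34, adjusted p = 0.0485). Among 12 regulators of MYC turnover and activity 2 were higher and 0 lower (median -0.29). They were Pim2 (1.45 ± 0.18), a kinase induced by cytokines, and Fbxw7 (1.40 ± 0.21), the ubiquitin ligase subunit that marks MYC for destruction.

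Of 37 MYC target genes 1 was higher and 7 lower (median -0.49), a called share of 21.6%, close to the 22.3% of all genes, with 18.9% of the list lower against 13% of all genes. Cdk4, a cell cycle kinase, fell by 0.97 (SE 0.17), Shmt2, an enzyme of mitochondrial serine metabolism, by 1.34 (SE 0.32), Tfdp1 by 0.87 (SE 0.22), and the mitochondrial chaperones Hspe1 and Hspd1 by 0.88 and 0.71. Ccnd2, which encodes cyclin D2, rose by 1.58 ± 0.26. With the mouse as a block 5 MYC targets were lower and 1 higher, and Hspd1 (adjusted p = 0.0647) and Slc1a5 (adjusted p = 0.0527) did not pass. Gadd45b, Nfat5, Tfrc, Mxd4 and Slc1a5 were named after their values in this comparison were seen. Only 8 of the 37 had a change above 0, called or not.

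**Figure D5:**
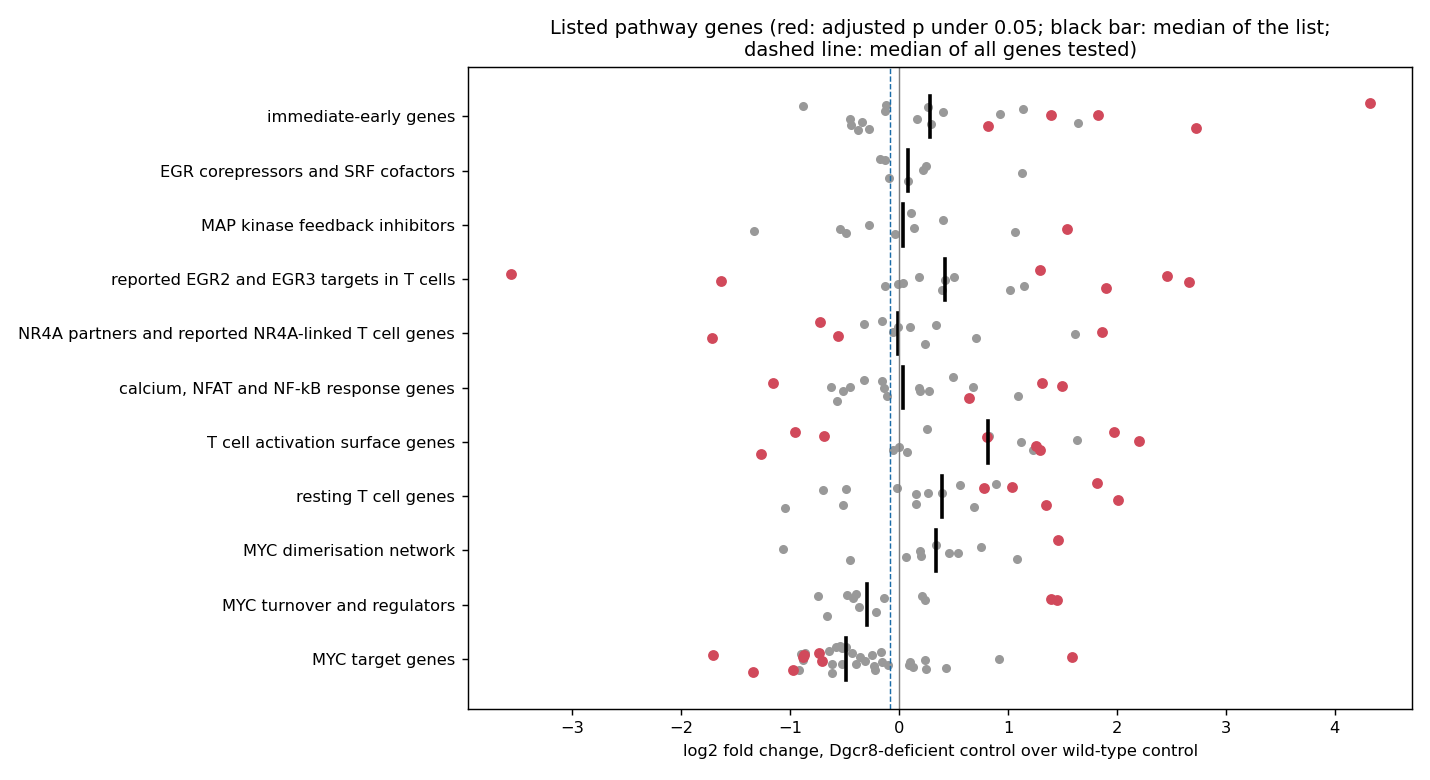
Log2 fold change of each tested gene of the 11 lists, Dgcr8-deficient control over wild-type control, with red for an adjusted p under 0.05, a black bar at the median of each list and a dashed line at the median of all genes (-0.08). MYC target genes have the lowest list median, -0.49, and activation surface genes the highest, 0.82.

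With miR-29b in Dgcr8-deficient cells, 2 of the 174 genes of the 11 lists passed, or 1.15%, against 2.3% of all genes. Ybx3, a cold-shock protein gene on the MYC target list, fell by 1.64 (SE 0.33, adjusted p = 0.0318), with levels of -3.04 to -1.76 with miR-29b and -1.35 to -0.68 with control miRNA. Relb, a subunit of the alternative NF-kB pathway, rose by 0.73 ± 0.15 (adjusted p = 0.0346), with levels of 2.68 to 2.83 against 1.98 to 2.06. Ybx3 was called under 13 of 21 settings and Relb under 9. Among uncalled genes Fasl, the death ligand and a reported EGR target, stood at -1.78 ± 0.42 (adjusted p = 0.0581), and Jun at -0.73 ± 0.18 (adjusted p = 0.0739).

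With the mouse as a block, which called 10.6% of all genes higher and 10.1% lower with miR-29b, 32 of the 174 listed genes passed. Of 20 immediate-early genes 2 were higher and 2 lower: Gadd45b rose by 0.91 ± 0.14 and Jund by 0.41 ± 0.10, and Jun fell by 0.73 and Ier2 by 0.73. Fasl fell by 1.78 (SE 0.21, adjusted p = 0.00514), with Socs3 and Dgkz higher among the EGR targets. Of 17 genes of resting T cells 6 were higher and 1 lower, with Tob1 at 0.97 ± 0.12, Lef1 at 0.83 ± 0.11 and Tcf7 at 0.76 ± 0.14 among those that rose. Of 16 activation surface genes 3 rose, namely Cd27 (0.80 ± 0.13), Sema7a (0.96 ± 0.19) and Cd200 (0.95 ± 0.21). Of 37 MYC targets 5 fell, Ybx3, Slc7a1, Ccnd2, Ddx21 and Mthfd2, and 0 rose. Gadd45b, Jund, Ier2, Dgkz, Tob1, Lef1, Cd27, Slc7a1, Ddx21 and Mthfd2 were named after their blocked values were seen.

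With miR-29 inhibitors in wild-type cells, 0 genes of the 11 lists passed, with or without the block. Medians there ran from -0.11 for the 37 MYC targets, of which 4 had a change above 0, to 0.09 for the EGR corepressors and serum response factor cofactors, against 0.02 for all genes.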

How the data were processed

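Spot intensity was deposited by the authors for each array as scanner output, which, per the file headers, came from Agilent Feature Extraction 10.5.1.1 with background subtracted from each spot. A table of log2 values was also deposited by the authors; the labels name limma for it and give no further steps, and it served as an alternative.

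The processed signal was turned to log2, the 75th percentile of each array was subtracted, and spots of a probe were averaged, without control spots and outlier-marked spots (68 to 1458 per array). Probes well above background on at least 3 of 12 arrays were kept (32200). RefSeq symbols were given to 21083 of them, and the brightest probe stood for each of 14705 genes. All 4 groups entered one fit of limma (version 3.58.1, under R 4.3.3, with data.table, version 1.17.8, to read files), with Benjamini-Hochberg adjustment and a threshold of 0.05. The fit was tested on simulated data. Precision is limited by the number of arrays, 3 in each group. P-values measure the spread between mice, and both arrays of a mouse entered as if independent. The mouse was a fixed block for the oligonucleotide effects and a random block for the genotype comparison. It was used because the design text states that both conditions came from the same mice. The miR-29b and genotype comparisons share the Dgcr8-deficient controls, and the inhibitor and genotype comparisons share the wild-type controls.

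The 7 genes, the lists and the tests were chosen with earlier results of these data known. Named genes were the 7 genes, of each list those past the threshold (at most 6, by smallest p) or the 2 with the smallest p, Dgcr8, and the 3 closest patterns, and not all of them are printed. Alternatives were other normalizations, the authors' table, filters on dim probes, rules for outlier-marked spots and probes of a gene, blocks by mouse, slide and scan day, fits of the compared arrays only, and fits without single arrays. Normexp used the median spot signal, since the mean was not among the columns. Fits without both arrays of Dgcr8-deficient mouse 2 or 3, or without scan day 2, were chosen after seeing the data.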

Additional observations from a re-analysis of the deposited data

How the results depend on the processing

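Egr2 among controls kept its direction and passed under each of 21 alternatives. The number of the 6 genes called with miR-29b became 1 with the replicate block and 1 with the slide block (Nr4a1 in both), and no other count of the 6 genes changed in any alternative. Genes called with miR-29b (338) became 646 with normexp, 571 in the authors' table, 3042 with the replicate block, 2480 with slide, 1818 with scan day, 0 with only the arrays compared, 10 without Dgcr8-deficient mouse 2, 117 without Dgcr8-deficient mouse 3, 96 without scan day 2, and 111 to 272 without single arrays (each array but miR-29b of mouse 3 cut the count by over 1.5 times). Genes called between controls (3274) became 5536 with every kept probe, 6152 with slide and 5843 with scan day. Calls for the difference between both effects (25) became 39 with quantile normalization, 110 with normexp, 92 in the authors' table, 61 with genes well above background on all 12 arrays, 13 with every kept probe, 839 with the replicate block, 603 with slide, 444 with scan day, 1 and 15 without Dgcr8-deficient mice 2 and 3, 0 without scan day 2, and 3 to 51 without single arrays. Among uncalled changes, the sign turned for Egr3 with miR-29b (-0.28 with quantile, -0.030 with normexp, -0.037 in the authors' table, -0.0076 without scan day 2, -0.15 to 0.47 without single arrays). Without Dgcr8-deficient mouse 2, Egr1 and Myc turned to 0.59 and 0.092 with miR-29b, Egr1 and Nr4a2 to -0.051 and -0.023 between controls, and Egr2 to 0.12 for the difference between effects. That last value was also 0.014 with quantile, 0.084 with normexp, 0.082 in the authors' table and 0.0085 with outlier-marked spots kept. Nr4a2 between controls was -0.0045 with normexp and -0.0060 in the authors' table. Without scan day 2, Nr4a2 and Myc turned to -0.12 and 0.028 with inhibitors, and Myc to -0.53 for the difference between effects. Leaving out single arrays moved Egr1 from -0.58 to 0.86 and Myc from -0.66 to 0.27 with miR-29b, Nr4a1 from -0.053 to 0.20, Nr4a2 from -0.11 to 0.12 and Myc from -0.57 to 0.39 with inhibitors, Egr1 from -0.051 to 1.39 and Nr4a2 from -0.023 to 0.22 between controls, and, for the difference between effects, Egr1 from -1.20 to 0.24, Egr2 from -0.23 to 0.32 and Myc from -0.59 to 0.48. The cause was not tested. Signal near background limits Egr3 and Nr4a3.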
